A study of Mus musculus with 11 samples.

Results

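Brain extracellular matrix genes were followed in RNA sequencing of primary neurospheres, spheres of neural stem cells and their progeny grown in suspension. The 10 genes were taken by name from the 53453 gene rows of the deposited table: the hyaluronan receptor gene Cd44, the proteoglycan genes Cspg4, Cspg5, Ptprz1, Vcan, Ncan and Bcan, the tenascin genes Tnc and Tnr, and the link protein gene Hapln1. All 10 were found, and 9 passed the filter on low values, which asked for at least 1 TPM in at least 5 libraries. The neurospheres came from the brain of mouse embryos at E15.5, with 6 libraries from control embryos that had no treatment and 5 from embryos with Klf5 overexpression. Klf5 belongs to the Kruppel-like transcription factors, which bind DNA through zinc fingers. The numbers of embryos equal those of the libraries. The sources used here do not give strain, litters, how Klf5 was raised or in which cells.

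Chondroitin sulfate proteoglycans are proteins that carry long sulfated sugar chains. The lecticans, among them versican (Vcan), neurocan (Ncan) and brevican (Bcan), bind hyaluronan at their amino end and tenascins at their carboxyl end, and link proteins such as Hapln1 hold the lectican on the hyaluronan chain. CD44 is a cell surface receptor for hyaluronan, NG2 (Cspg4) is a membrane proteoglycan of oligodendrocyte progenitors and pericytes, and Ptprz1 is a receptor tyrosine phosphatase of neural progenitors and glia that is itself a proteoglycan. Tenascin-C (Tnc) is a glycoprotein of the neural stem cell niche.

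All levels are in TPM (transcripts per 1e6), a unit corrected for transcript length, so levels of different genes can be set side by side; sequencing depth cannot be read from it. The listed rows of a library summed to 730832 to 821967 TPM with overexpression and 814208 to 846780 TPM in controls, so any difference in what the rows leave out enters every comparison. Klf5 itself stood at 53.6 to 93.02 TPM with overexpression and 0.371 to 1.29 TPM in controls. All 10 neural stem cell and radial glia markers passed the filter, at levels that differed widely: in controls means ran from 6.34 TPM for Prom1 and 8.12 TPM for Pax6 through 342 TPM for Nes and 377 TPM for Sox2 to 3596 TPM for Fabp7. With overexpression the same genes had 3.52, 8.09, 382, 360 and 2105 TPM, and none of these 5 passed the limma test. Of the 8 genes of the list that did not pass, Fabp7, Hes5 and Prom1 had an unadjusted p under 0.05, each with the lower mean in overexpression libraries. Summed markers of some other cells were low: at most 1.28 TPM for 8 endothelial genes, 0.83 TPM for 6 erythroid genes and 9.67 TPM for 8 choroid plexus and ependymal genes. Most of the last sum was Foxj1, which passed the filter, at 5.66 to 9.62 TPM in controls and 3.26 to 7.43 TPM with overexpression. Other lists summed higher in controls: 1764 to 3070 TPM for oligodendrocyte progenitors, 353 to 509 TPM for neurons and 220 to 332 TPM for astrocytes.

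In control neurospheres these genes covered a wide range of levels. Ptprz1 led with 356 ± 35.01 TPM (SD, n = 6), followed by Bcan with 317 ± 71.7 TPM and Ncan with 250.2 ± 23.2 TPM, which placed each of the 3 above 97.4% of the tested genes. Cspg5, the neuroglycan C gene, had 108 ± 22.5 TPM, Tnc 56.2 ± 16.2 TPM and Cspg4 45.7 ± 8.07 TPM. Vcan followed at 20.2 ± 3.32 TPM, Cd44 at 13.02 ± 4.30 TPM, Tnr at 3.65 ± 3.98 TPM and Hapln1 at 0.0525 ± 0.0759 TPM. Not every step in this order was larger than the spread between libraries. The ranges did not overlap between Ncan and Cspg5, between Cspg4 and Vcan, or between Tnr and Hapln1, and they overlapped at each of the other 6 steps. Ptprz1 was above Bcan in 5 of 6 control libraries, and Tnc above Cspg4 in 4 of 6.

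With Klf5 overexpression the order changed in its middle. Ptprz1, Bcan and Ncan kept the first 3 places in every overexpression library, Cspg4 was in place 4 in 4 of 5 libraries against place 5 or 6 in every control library, and Cd44 was in place 6 or 7 against places 7 to 9. Tnc went from places 4 to 6 in controls to places 6 to 8. Summed over the 10 genes, control libraries had 1169 ± 122 TPM (SD, n = 6) and overexpression libraries 1164 ± 147 TPM (SD, n = 5).

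**Figure D1:**
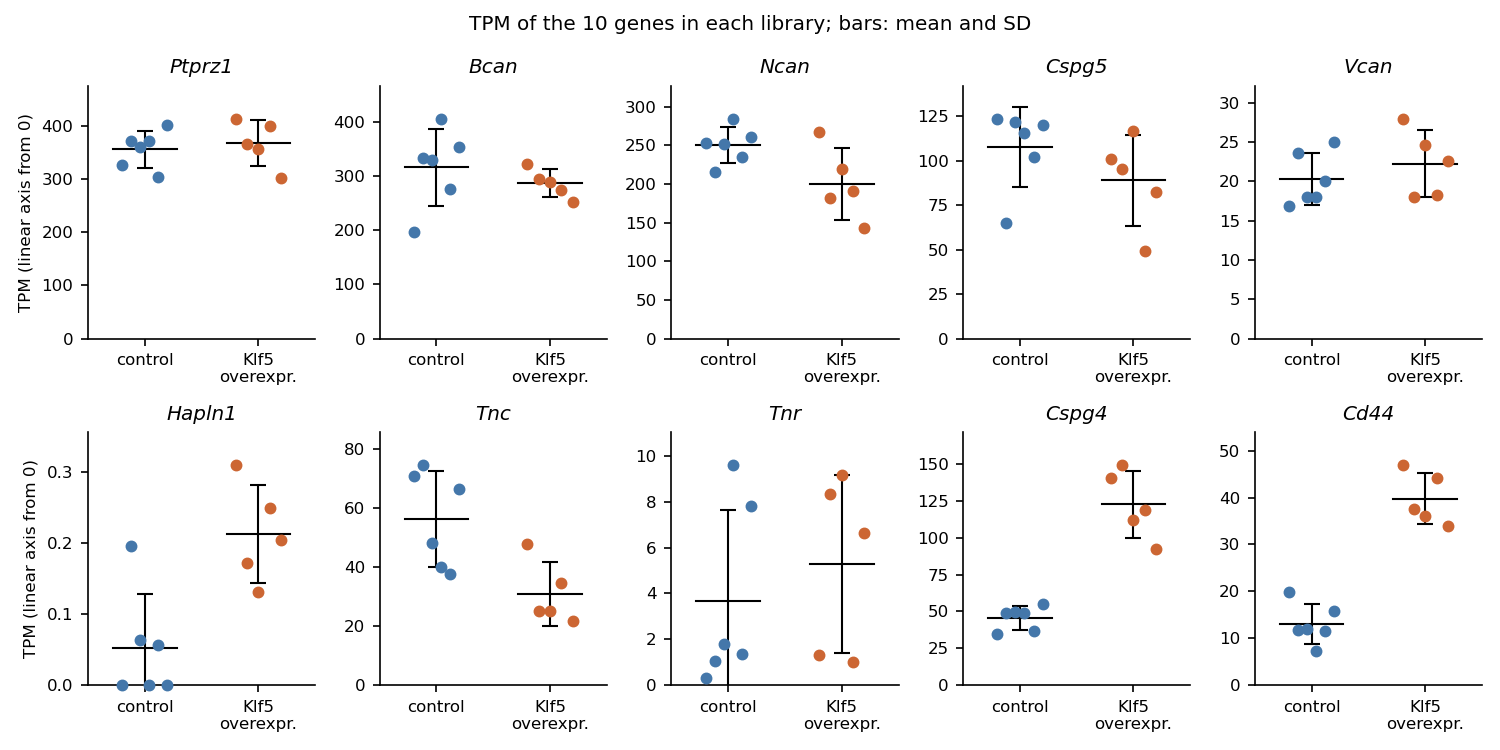
TPM of each of the 10 genes, 1 panel per gene on a linear axis from 0; points are libraries (6 control, 5 Klf5 overexpression), bars are the mean and SD, cut at 0 in the controls of Tnr and Hapln1. Only the Cspg4 and Cd44 panels show groups of libraries that do not overlap, with Cd44 at 34.01 TPM or more with overexpression and 19.8 TPM or less in controls.

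Cd44 and Cspg4 rose with Klf5 overexpression. Tnc fell, in a call that 12 of the 22 alternative fits described below lost. The other 6 tested genes did not pass the test, which was limma on log2(TPM + 1) with Benjamini-Hochberg adjustment over all 13549 tested genes and a threshold of 0.05. Of the 9 tested genes 2 were thus called higher, where 2.29% of all tested genes were, and 1 lower, where 1.43% were (3.72% in either direction). These genes were chosen with earlier results of the same libraries known, so the shares only describe them. Their median log2 fold change was 0.04, beside -0.04 over all tested genes. Coordinates below are those of GRCm38 (GENCODE M21). These are bulk cultures, in which fewer cells of a type and less RNA per cell cannot be told apart.

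**Figure D2:**
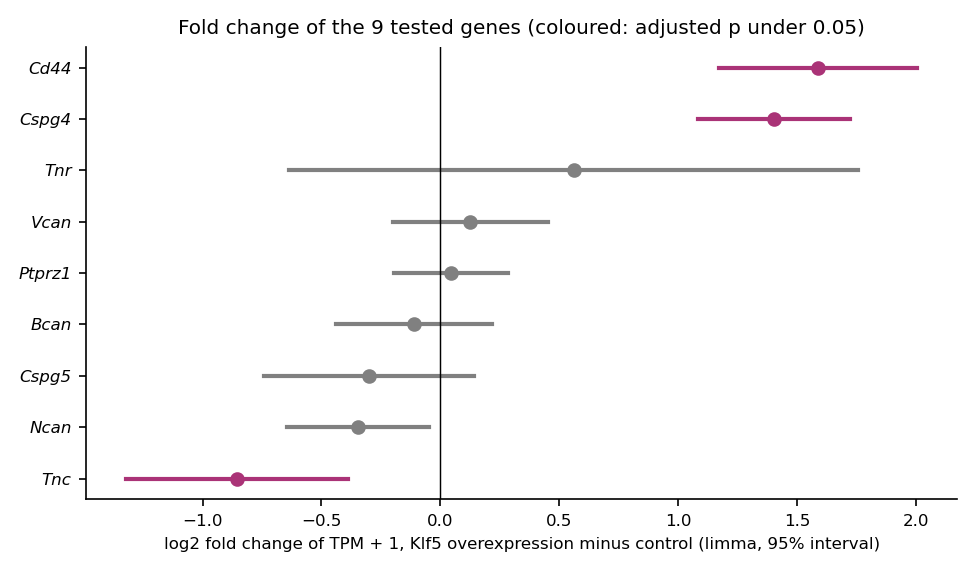
Log2 fold change of TPM + 1 (Klf5 overexpression minus control, x axis) of the 9 tested genes, with the 95% interval from limma, not adjusted for the number of genes; coloured genes passed the adjusted threshold. Cd44 at 1.59 and Cspg4 at 1.40 lie far above 0, Tnc at -0.85 lies below it, and the interval of Tnr is the widest.

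Cd44 (chr2:102811141-102901665, minus strand), the hyaluronan receptor gene, had 46.9, 37.6, 36.1, 44.2 and 34.01 TPM in overexpression libraries 1 to 5. The 6 control libraries ran from 7.17 TPM through a median of 11.9 TPM to 19.8 TPM. Every overexpression library was above every control library, and the control libraries differed among themselves by up to 2.76-fold, the overexpression libraries by 1.38-fold. The ratio of means was 3.06 and the log2 fold change 1.59 with an SE of 0.20, at an adjusted p of 0.000131 in limma. Among all tested genes, 1.99% had overexpression libraries entirely above the controls, 1.31% entirely below them and 3.29% in either direction; Cd44 and Cspg4 were the 2 of the 9 tested genes here with such a gap. Cd44 moved from the 46.9th percentile of tested genes by mean level to the 78.0th.

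Astrocyte markers were set beside this gene because Cd44 marks astrocyte precursors as well as mesenchymal cells. Of 9 listed astrocyte genes 8 were tested, 3 were higher (S100b, Fgfr3 and Sparcl1) and Aldh1l1 was lower. Among all tested genes 2.29% were higher and 1.43% lower. Of the 8 genes 7 had an unadjusted limma p under 0.05, and 4 log2 fold changes were above 0 and 4 below. Slc1a2 and Aldoc were among those below 0, and Aqp4 among those above. S100b reached 1 TPM in 2 of 6 control libraries and all 5 overexpression libraries, so it passed the filter only through the group where it was high, and its call supports nothing. Their summed level was 220 to 332 TPM in controls and 236 to 412 TPM with overexpression, and Gfap, the defining filament of mature astrocytes, did not exceed 0.57 TPM in any library. Their part in the Cd44 result was not tested. The 14 mural and mesenchymal markers summed to 2.01 to 9.15 TPM in controls and 4.39 to 7.92 TPM with overexpression. Of these, Kcnj8, Higd1b, Lum and Dcn were at 0 in every library, and Acta2 and Tagln made up most of the sum. Des had 0 to 0.695 TPM in controls and 0.798 to 1.89 TPM with overexpression, which did not overlap. It was below the filter, was not tested and is given after its values were seen. The share of rows below the filter with such a gap was not counted. Col1a1 had a mean of 0.176 TPM in controls and 0.539 TPM with overexpression. The part of this list in the Cd44 result was not tested.

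Cspg4 (chr9:56865033-56899870, plus strand), the NG2 gene, had 141, 149, 112, 119 and 92.4 TPM in overexpression libraries 1 to 5. Controls ran from 34.97 TPM through a median of 48.9 TPM to 54.97 TPM. The groups did not overlap, and the lowest overexpression library was 5. The ratio of means was 2.68 and the log2 fold change 1.40 with an SE of 0.15, at an adjusted p of 3.58e-05 in limma. Both calls, for Cd44 and Cspg4, held under all 22 alternatives, with adjusted p up to 0.0034 and 0.00125. The 22 are 21 distinct fits, since leaving out control library 6 is the same fit as the unblocked fit on replicates 1 to 5.

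Most other markers of oligodendrocyte progenitors did not pass the test. Of 9 such genes, all tested, C1ql1, a secreted C1q-like protein, rose from a control mean of 14.2 ± 6.38 TPM (SD, n = 6) to a mean of 39.1 ± 3.19 TPM (n = 5), and the other 8 did not pass. Among all tested genes 2.29% were higher. Of the 9 log2 fold changes 3 were above 0 and 6 below. Besides C1ql1, only Olig1 had an unadjusted limma p under 0.05, with 1075 TPM with overexpression and 1375 TPM in controls (limma adjusted p = 0.330). The receptor gene Pdgfra stood at 42.7 ± 18.1 TPM with overexpression and 65.3 ± 26.5 TPM in controls (adjusted p = 0.563 in limma). Olig2, the lineage transcription factor, stood at 634.5 and 683.5 TPM (adjusted p = 0.847). The list summed to 1764 to 3070 TPM in controls and 1801 to 2206 TPM with overexpression. Within a library, the level of Cspg4 was 0.525 to 1.56 times that of Pdgfra in controls and 1.67 to 5.71 times with overexpression. These ranges did not overlap, but the ratio carries the Cspg4 change given above and is not a separate result. Pericytes also carry NG2. Of the mural markers in the list given beside Cd44, Pdgfrb reached at most 0.394 TPM, Rgs5 0.222 TPM, Des 1.89 TPM, Tagln 4.10 TPM and Acta2 5.35 TPM in any library, and the part of that list in the Cspg4 result was not tested.

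Tnc (chr4:63959785-64047015, minus strand), the tenascin-C gene, had 47.9, 24.9, 25.02, 34.6 and 21.6 TPM in overexpression libraries 1 to 5. Controls ran from 37.8 TPM through a median of 57.2 TPM to 74.4 TPM. Overexpression libraries 2 to 5 were below every control library, and library 1 lay within the control range. The level in controls was 1.82 times that with overexpression, and the log2 fold change was -0.85 with an SE of 0.22, at an adjusted p of 0.0404 in limma. Of 11 fits that each left out 1 library 8 lost the call (adjusted p 0.0111 to 0.12; it held without control library 4 or 5 or overexpression library 1), as did 3 of the 10 other distinct alternatives, up to 0.177 without a filter on low values.

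Radial glia and stem cell markers were set beside Tnc, which these cells make. Of 10 listed, all tested, Vim was higher and the glutamate transporter gene Slc1a3 lower. Among all tested genes 2.29% were higher and 1.43% lower. The Vim call was lost in 9 of the 11 leave-one-out fits and kept without overexpression library 2 or 5. Summed, the list had 4828 to 7936 TPM in controls and 3759 to 5779 TPM with overexpression, led by Fabp7. The part of these markers in the Tnc result was not tested. Cd44 and Tnc changed places: Tnc was 3.27 to 6.30 times the level of Cd44 in every control library and 0.636 to 1.02 times with overexpression, which follows from the 2 changes given above.

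**Figure D3:**
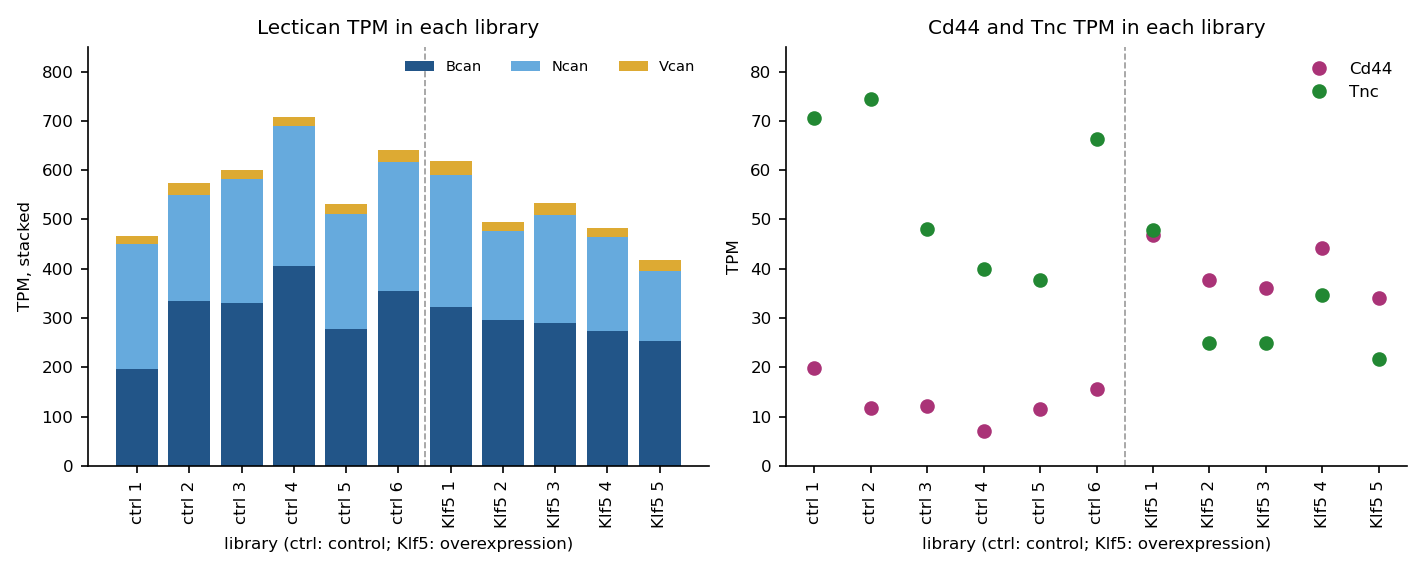
Left, TPM of Bcan, Ncan and Vcan stacked for each library, on an axis from 0; right, TPM of Cd44 and Tnc in the same libraries, with control and Klf5 overexpression separated by the dashed line. Tnc points lie above Cd44 points in all 6 control libraries and in overexpression library 1, and below them in the other 4.

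Start regions are shown for the 3 genes with a call and for Ptprz1, which had no call, to set them side by side. They were searched for CCNCNCCC, the letters of a CACCC or GC box of the kind that Kruppel-like factors bind, on both strands, with overlapping matches counted. Each window runs from 250 bases before to 50 bases after the RefSeq start of transcription (GRCm38.p6), written 5′ to 3′ along the gene's own strand, with bases inside a match in capitals. The Cd44 window is chr2:102901616-102901915 (minus strand), that of Cspg4 chr9:56864854-56865153 (plus strand), that of Tnc chr4:64046966-64047265 (minus strand) and that of Ptprz1 chr6:22875252-22875551 (plus strand).
Cd44: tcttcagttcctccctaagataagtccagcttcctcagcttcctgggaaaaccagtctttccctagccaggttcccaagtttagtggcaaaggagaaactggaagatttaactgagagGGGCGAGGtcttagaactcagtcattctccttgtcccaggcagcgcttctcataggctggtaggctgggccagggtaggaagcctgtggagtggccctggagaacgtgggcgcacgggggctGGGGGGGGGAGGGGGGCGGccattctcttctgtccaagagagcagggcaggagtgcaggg
Cspg4: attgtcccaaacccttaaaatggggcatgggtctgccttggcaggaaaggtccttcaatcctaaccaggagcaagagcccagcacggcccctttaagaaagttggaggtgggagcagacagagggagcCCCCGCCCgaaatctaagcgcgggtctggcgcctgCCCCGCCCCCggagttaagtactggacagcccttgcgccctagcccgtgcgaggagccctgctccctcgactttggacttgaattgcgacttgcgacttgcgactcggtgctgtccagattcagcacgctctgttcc
Tnc: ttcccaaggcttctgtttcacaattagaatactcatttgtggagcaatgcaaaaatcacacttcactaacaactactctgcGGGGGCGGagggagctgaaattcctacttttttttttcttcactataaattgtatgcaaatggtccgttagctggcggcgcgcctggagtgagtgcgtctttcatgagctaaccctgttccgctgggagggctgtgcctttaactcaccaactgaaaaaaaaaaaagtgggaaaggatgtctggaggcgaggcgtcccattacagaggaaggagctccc
Ptprz1: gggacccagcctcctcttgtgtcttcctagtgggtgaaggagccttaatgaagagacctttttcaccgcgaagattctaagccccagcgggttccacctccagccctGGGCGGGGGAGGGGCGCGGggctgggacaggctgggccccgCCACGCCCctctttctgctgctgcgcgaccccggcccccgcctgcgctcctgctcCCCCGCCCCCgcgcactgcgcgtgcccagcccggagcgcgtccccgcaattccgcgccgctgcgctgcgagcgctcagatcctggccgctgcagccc

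These windows held 6 matches for Cd44, 3 for Cspg4, 1 for Tnc and 7 for Ptprz1. In the Cd44 window 5 of the 6 overlap each other in a G-rich run across the start of transcription, and all 6 read on the reverse strand. In the Cspg4 window the 3 matches read in the searched direction. RefSeq windows were available for 9 of the 10 genes, 10 windows in all since Tnc has 2 that overlap. Those of Vcan held 6 matches, Hapln1 2, Ncan and Bcan 1 each and Tnr 0. Of all 32851 RefSeq windows 49.5% held at least 1 match and 8.16% at least 5, so matches of this kind are common. Among the genes without a call the count ran from 0 for Tnr to 7 for Ptprz1. The Ptprz1 window was also the richest in G and C, at 71.7%. Those of Cd44 and Cspg4 had 58% and 60%, and the median of all windows was 52.7%. Whether the matches have a part in the changes was not tested. A match describes letters and is not evidence of binding.

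The lecticans did not pass the test. Ncan had 267, 182, 219, 191 and 143 TPM in overexpression libraries 1 to 5, and controls ran from 216 TPM through a median of 252 TPM to 284 TPM. Overexpression libraries 2, 4 and 5 were below every control library, and libraries 1 and 3 lay within the control range. Its log2 fold change was -0.35 with a 95% interval from -0.64 to -0.05 before adjustment, and its limma adjusted p was 0.28. Across alternatives the adjusted p of Ncan ran from 0.0609 to 0.498 and never passed.

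Bcan had 323, 295, 289, 274 and 253 TPM with overexpression against 198 to 406 TPM in controls, with control library 1 lowest, and a log2 fold change of -0.11 (95% interval -0.44 to 0.22, limma adjusted p = 0.895). Vcan, whose splice forms the table does not separate, had 27.9, 17.96, 24.6, 18.3 and 22.5 TPM against 16.8 to 24.9 TPM, with a log2 fold change of 0.13 (95% interval -0.20 to 0.45, limma adjusted p = 0.871). All overexpression values of Bcan lay within the control range, and for Vcan only overexpression library 1 lay above it. A missed threshold does not show that levels were the same, and the intervals give the sizes of change that these libraries leave possible.

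The shares of the lecticans overlapped between the groups. Bcan made up 56.7% ± 3.49 (SD, n = 5) of summed lectican TPM with overexpression and 53.4% ± 5.83 (SD, n = 6) in controls, Ncan 38.9% ± 3.60 and 43.1% ± 5.78, and Vcan 4.38% ± 0.71 and 3.48% ± 0.60. Aggrecan (Acan) stayed below 0.08% in every library. Control library 1 was the only 1 of the 11 in which Ncan exceeded Bcan. Summed lectican TPM was 418 to 618 with overexpression and 467 to 709 in controls.

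Link proteins were almost absent beside the lecticans. Hapln1 was at 0 in control libraries 1, 4 and 6 and at 0.0559 to 0.195 TPM in the other 3, against 0.131 to 0.309 TPM with overexpression. It stayed under 1 TPM in every library and was not tested, and no fold is given because controls include values of 0. The 4 link protein genes together summed to 1.02 to 2.02 TPM in controls and 0.878 to 2.22 TPM with overexpression, while lecticans summed to at least 418 TPM in every library.

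The 4 lectican genes each have a link protein gene beside them in the genome (GRCm38, GENCODE M21), with 0 protein-coding genes between the partners. Vcan (chr13:89655312-89742509, minus strand) and Hapln1 (chr13:89539796-89611652, plus strand) lie 43.7 kb apart, Bcan (chr3:87987531-88000230) and Hapln2 21.5 kb, and Ncan (chr8:70093085-70120873) and Hapln4 2.22 kb, while Acan and Hapln3 are separated by 2 bp. The neighbours differed in level: Ncan had 250.2 TPM in controls and Hapln4 0.759 TPM, Bcan 317 TPM and Hapln2 0.0259 TPM, and Vcan 20.2 TPM and Hapln1 0.0525 TPM. In the last pair, Acan and Hapln3, both were low, at 0.338 and 0.632 TPM.

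Tnr (chr1:159523769-159931729, plus strand), the tenascin-R gene of oligodendrocytes and some neurons, had high and low libraries in both groups. It had 1.32, 8.34, 9.18, 1.004 and 6.64 TPM in overexpression libraries 1 to 5 and 0.327, 1.07, 1.78, 9.59, 1.34 and 7.82 TPM in control libraries 1 to 6. Overexpression libraries 2, 3 and 5 and control libraries 4 and 6 were high, and no library lay between 1.78 and 6.64 TPM. The log2 fold change was 0.56 with a 95% interval from -0.64 to 1.76 and a limma adjusted p of 0.826, an interval that holds changes of either sign. The list of 10 neuronal markers summed to 353 to 509 TPM in controls and 313 to 420.5 TPM with overexpression, and 0 of its 9 tested genes passed in limma, with 4 at an unadjusted p under 0.05 and all 9 log2 fold changes below 0. Mature oligodendrocyte genes summed to 68.7 to 163 TPM and 70.9 to 108 TPM, mostly Cnp, with Mobp at or under 0.0365 TPM in every library. The part of either list in the Tnr values was not tested.

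Ptprz1 (chr6:22875502-23052916, plus strand), the most abundant of the 10, had 413, 366, 355, 400.2 and 302 TPM with overexpression and 304 to 402 TPM in controls. Its log2 fold change was 0.04 (95% interval -0.20 to 0.28, limma adjusted p = 0.956), the narrowest interval of the 9 tested genes. Cspg5 (chr9:110243783-110262576, plus strand), a transmembrane proteoglycan with an EGF-like domain, had 100.97, 95.4, 117, 49.03 and 82.2 TPM, against 64.8 to 123 TPM in controls, a log2 fold change of -0.30 (95% interval -0.74 to 0.14, limma adjusted p = 0.672). In both genes the groups overlapped. Overexpression library 4 had the lowest Cspg5 value, and control library 2 stood apart from the other 5 controls.

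**Figure D4:**
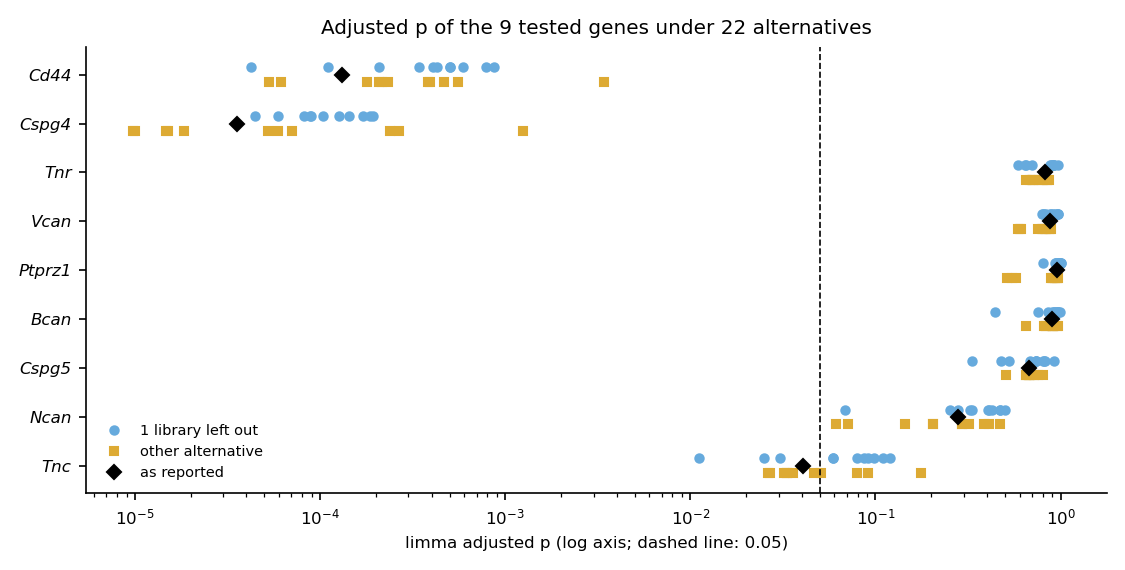
Limma adjusted p (log axis) of the 9 tested genes as reported (diamonds), with 1 library left out (11 circles per gene) and under the 11 other alternatives (squares, of which 1 repeats the fit without control library 6); the dashed line is the threshold of 0.05. All points of Cd44 and Cspg4 lie to the left of the line, those of Tnc fall on both sides, and all of the other 6 genes lie to the right.

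Genes that make, bind, cut or anchor these molecules were read from the same fit in 8 lists holding 128 further genes, of which 82 were tested; where 2 levels are set against each other below, the overexpression mean comes first and the control mean second. Of the 82, 6 rose and 3 fell, 7.32% and 3.66%, beside 2.29% and 1.43% of all tested genes. The lists too were chosen with earlier results of the same libraries known, so these shares only describe them. The 6 include Prelp, which passed the filter only through the overexpression libraries. The median log2 fold change was -0.08, beside -0.04 over all tested genes. Across the 22 alternatives the higher count ran from 4 to 7 and the lower count from 0, without a filter on low values, to 6, with trimmed-mean or quantile scaling.

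Of 7 listed genes for proteins that tie CD44 to the cytoskeleton 5 were tested, with 2 called higher and 1 lower. Among all tested genes 2.29% were higher and 1.43% lower. This list was chosen with earlier results of the same libraries known, so the count only describes it. Ezrin (Ezr) rose from a control mean of 18.97 ± 3.34 TPM (SD, n = 6) to a mean of 55.5 ± 16.7 TPM (n = 5), which is 1.47 ± 0.18 (SE) in log2 units at an adjusted p of 0.000105 in limma, and moesin (Msn) from 105 to 161 TPM, with a limma adjusted p of 0.0194 that was 0.0583 without overexpression library 4 and up to 0.0643 in 2 other alternatives. Radixin (Rdx), the third member of that family, had 108 against 116 TPM (limma adjusted p = 0.854). Ankyrin-2 (Ank2) fell from 174 to 84.9 TPM (limma adjusted p = 0.00952, and 0.0732 without a filter on low values). Merlin (Nf2) had 42.5 against 47.5 TPM and did not pass.

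Enzymes that cut lecticans and their inhibitors gave 2 higher and 1 lower of 14 tested. Adamts4, a protease that cleaves brevican and other lecticans, rose from a control mean of 11.2 ± 2.41 TPM (SD, n = 6) to a mean of 23.7 ± 4.17 TPM (n = 5), which is 1.03 ± 0.17 (SE) in log2 units at an adjusted p of 0.00203 in limma. Its call held in all 22 alternatives, but its level is uncertain if counting ignored strand. The inhibitor gene Timp2 rose from 30.7 to 46.9 TPM (limma adjusted p = 0.0175, up to 0.0591 with 1 library left out, and lost without overexpression library 2, 3 or 4). The membrane protease gene Mmp14 fell from 75.6 to 45.5 TPM (limma adjusted p = 0.0359), a call missing from 6 of the 11 leave-one-out fits (without control library 2, 3, 5 or 6 or overexpression library 2 or 4), up to 0.0876, and from 3 of the 10 other distinct alternatives.

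Chondroitin sulfate chain synthesis held 1 changed gene among 26 tested. Chst11, a sulfotransferase that acts on position 4 of the chondroitin sugar, fell from a control mean of 78.5 ± 9.61 TPM (SD, n = 6) to a mean of 51.4 ± 11.2 TPM (n = 5), which is -0.62 ± 0.14 (SE) in log2 units at an adjusted p of 0.0227 in limma. The threshold was missed in 5 of the 11 leave-one-out fits (without control library 3, 4 or 6 or overexpression library 2 or 3), up to 0.0579, and in 2 of the 10 other distinct alternatives. Chst7, another sulfotransferase, averaged 88.5 TPM with overexpression and 118 TPM in controls (adjusted p = 0.0611 in limma). Its groups only just failed to overlap, with the highest overexpression library at 102.74 TPM and the lowest control library at 102.76 TPM. Among all tested genes 1.31% had overexpression libraries entirely below the controls. Chst7 passed in 4 of the 10 other distinct alternatives, down to 0.0024 with quantile normalization, and without overexpression library 1 (0.0366). Of the 26 genes 22 had log2 fold changes below 0, with a median of -0.12, while 7800 of all 13549 tested genes were below 0.

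Other proteoglycans had 1 call in each of their lists. Col18a1, the collagen XVIII gene whose product carries heparan sulfate, rose from a control mean of 1.79 ± 0.90 TPM (SD, n = 6) to a mean of 21.8 ± 9.19 TPM (n = 5), a ratio of means of 12.2 with a limma adjusted p of 3.56e-06. It overlaps Slc19a1, so reads of the pair would be mixed if counting ignored strand. Prelp, a small leucine-rich proteoglycan, went from a control mean of 0.724 ± 0.335 TPM (SD, n = 6) to a mean of 6.32 ± 2.82 TPM (n = 5), a ratio of 8.73. It reached 1 TPM in 2 of 6 control libraries and all 5 overexpression libraries, so it passed the filter only through the group where it was high, its test supports nothing, and it was not among the genes tested with a filter at 5 TPM. Agrin (Agrn) had 188 against 133 TPM (limma adjusted p = 0.113), and passed in 4 of the 10 other distinct alternatives, down to 0.00856 with trimmed-mean scaling, and without overexpression library 5 (0.028). Testican-2 (Spock2) had 22.2 against 15.01 TPM (limma adjusted p = 0.182). The heparan sulfate list had 12 tested genes and the other proteoglycan list 5, and decorin (Dcn) and lumican (Lum) were at 0 throughout.

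Hyaluronan metabolism and the receptors of these molecules gave 0 calls in limma. Of 7 tested hyaluronan genes 1 had an unadjusted p under 0.05: Tnfaip6, a hyaluronan-binding protein, had 4.74 against 8.55 TPM (limma adjusted p = 0.096). The synthase gene Has2 had 1.01 against 1.13 TPM, Has1 was at 0 throughout, and Hyal1, a hyaluronidase, had 4.65 against 5.40 TPM (limma adjusted p = 0.767). Of 13 tested receptor and ligand genes 4 had an unadjusted p under 0.05. Pleiotrophin (Ptn), a Ptprz1 ligand, had 919.5 against 996 TPM (limma adjusted p = 0.937), midkine (Mdk), another of its ligands, 12.1 against 18.7 TPM (limma adjusted p = 0.229) and the integrin gene Itgb8 18.8 against 26.01 TPM (limma adjusted p = 0.232). The remaining lectican, link protein and tenascin genes could not be tested, and the highest value of any of the 6 was 1.90 TPM.

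**Figure D5:**
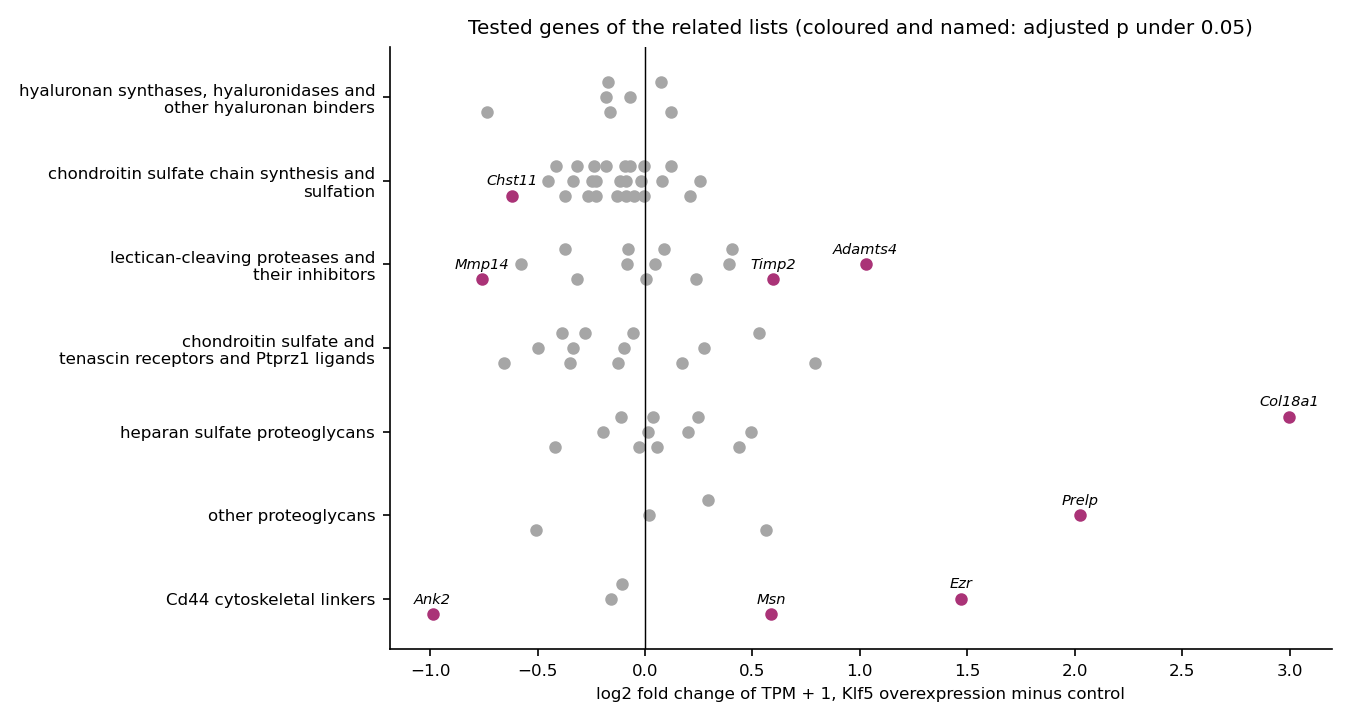
Log2 fold change of TPM + 1 (Klf5 overexpression minus control) of the tested genes in each related list, 1 point per gene, set off vertically only to keep points apart; coloured and named points passed the limma threshold. Col18a1 at 3.00 and Prelp at 2.02 lie farthest to the right, and 22 of 26 chondroitin sulfate synthesis genes lie left of 0.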

How the data were processed

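The authors deposited 1 table of TPM per gene for the 11 libraries, made from total RNA with directional library kits, per the labels' protocols. The submitters' processing notes name HISAT2, StringTie, HTSeq, DESeq2 and GRCm38.p5, with no versions or roles. The sources used here do not give the annotation, the strand setting or which library had which of 2 kits. TPM keeps no depth, so counting error is unknown, and splice forms are summed.

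The 13549 genes of 53453 that reached 1 TPM in 5 libraries or more were compared with limma 3.58.1 in R 4.3.3 on log2(TPM + 1), with a variance trend and no covariate. Fold changes on this scale understate changes of low genes. Adjusted p-values are Benjamini-Hochberg values over all tested genes, with a threshold of 0.05. The script was tested on simulated data. Named genes are the 10 genes of interest, Klf5 and, of each related list, the 2 tested genes with the smallest p, with up to 2 more that passed where 3 or more did; further genes (C1ql1, Rdx, Nf2, Has1, Has2, Ptn and cell markers) are given as context and were chosen after their values were seen. Genes of interest and lists were chosen with earlier results of these data known. Summaries, figures and promoter matches used Python 3.11.15; positions are from GENCODE M21 and promoter windows from RefSeq (GRCm38.p6). The summed level of 1 marker list is not reported here.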

Additional observations from a re-analysis of the deposited data

Results flagged for a closer look

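Among 54 groups of 5 or 6 libraries examined for the 10 genes of interest, Klf5 and the 16 named related genes, 4 held a library whose gap to its nearest neighbour was a large part of the group's range (Dixon's ratio); chance gives about 1 in 20. Cspg5 was lowest in control library 2, at 64.8 TPM against 101.8 to 123 TPM in the other 5, with a ratio of 0.631. Hapln1 was highest in the same library, at 0.195 TPM against 0 to 0.0640 TPM, with a ratio of 0.672. Timp2 was highest in control library 6, at 39.6 TPM against 27.1 to 30.5 TPM, with a ratio of 0.731. Itgb8 was highest in control library 4, at 33.1 TPM against 23.1 to 25.9 TPM, with a ratio of 0.716.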

How the results depend on the processing

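Cd44 and Cspg4 were the 2 genes of interest called higher in each of the 22 alternatives (21 distinct fits). No direction reversed among the called genes. The labels give no sex, so the sex covariate named below was inferred from Xist and Y-linked genes, with both sexes in each group. The count of genes of interest called lower, 1 as reported (Tnc), was 0 without a filter on low values, without a variance trend, with sex as a covariate and on the 10 libraries of replicates 1 to 5 (the same fit as without control library 6), with Tnc at limma adjusted p of 0.177, 0.0790, 0.0505 and 0.0911, and it ran from 0 to 1 with 1 library left out; the cause was not tested. Over all tested genes, 310 were higher and 194 lower. Without a filter they were 254 and 95. The lower count was 306 with trimmed-mean scaling, 311 with quantile normalization and 129 on the 10 libraries. With 1 library left out, the higher count ran from 206 (without overexpression library 4) to 313 and the lower count from 117 (without overexpression library 2) to 212, with 125 without control library 3 and 129 without control library 6 or overexpression library 5. Among related genes, 3 lower calls became 0 without a filter, 1 without a variance trend, 1 on the 10 libraries and 6 with trimmed-mean scaling or quantile normalization, and ran from 1 (without control library 3 or 6 or overexpression library 2) to 4 with 1 library left out. The higher count, 6, ran from 4 to 7. Agrn and Chst7 were gained with trimmed-mean scaling, quantile normalization, removal of mitochondrial, haemoglobin and ribosomal RNA-like rows, and array weights, and Mmp15 and Papss1 with the first pair.

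Replicate numbers gave little sign of pairing the samples. Deviations from the group means correlated at 0.298, 0.0463, 0.0210, -0.0175 and 0.0216 for numbers 1 to 5, highest for number 1. Of the libraries, 1 of 5 control and 1 of 5 overexpression correlated best with its own number. The sources used here do not give litters or the kit of each library, so sharing of these within a number was not tested. With the replicate block 288 genes were higher and 138 lower, with 2 and 1 genes of interest and 6 and 2 related genes; without it on the same 10 libraries the counts were 277 and 129. Mmp14 had a limma adjusted p of 0.0726 with the block. TPM gives no depth, so how far low genes such as Hapln1 and Tnr are limited by it is unknown.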

Other observations

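A pair of related genes below the filter on low values is given here, chosen after their values were seen and not tested. The share of rows below the filter with groups that do not overlap was not counted. Itih5, an inter-alpha-trypsin inhibitor heavy chain of the family that binds hyaluronan, had 0.0419 to 0.509 TPM in controls and 0.659 to 3.05 TPM with overexpression, and these ranges did not overlap. Ank3, the ankyrin-G gene, had 0.116 to 1.44 TPM in controls and 0.0242 to 0.514 TPM with overexpression. Its ranges overlapped: only overexpression libraries 1 and 2 were below the lowest control, which was control library 1. Cspg4 set against Ptprz1, the most abundant of the proteoglycan genes and one with no call, was 0.107 to 0.139 times its level in controls and 0.297 to 0.408 times with overexpression. That ratio carries the Cspg4 change given above and is not a separate result.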
